A study of Mus musculus with 8 samples.

Results

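Splenic B cells of mice that lack the whole immunoglobulin heavy chain (IgH) 3' regulatory region, 3'RR, were compared with those of mice that lack only its last enhancers, hs3b and hs4. The comparison uses 4 of the series' 8 RNA-seq libraries, chosen by their genotype labels alone: 3'RR-deleted and hs3b-hs4-deleted B cells, each resting and stimulated. Both deletions are homozygous, on a background labelled mixed 129/C58BL/6, so hs3b and hs4 are missing in all 4 libraries and the groups differ in the rest of the 3'RR. Resting cells were freshly purified from spleen by negative selection on CD43, a surface protein of T cells, plasma cells and B-1 cells. Stimulated cells were cultured for 48 h with 5 µg/mL lipopolysaccharide (LPS), a bacterial product that activates B cells through TLR4. Each library was made from pooled cells of 4 animals, with 1 library per genotype and state, and the labels do not say whether resting and stimulated pools share animals. The wild-type and 3'PAL-deleted libraries are outside this comparison and are quoted as reference levels. They also enter the test of differences between states, where they supply spread, and some alternative fits.

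The 3'RR lies downstream of the last heavy chain constant gene and holds 4 enhancers, hs3a, hs1.2, hs3b and hs4. It is known to drive heavy chain transcription in activated B cells and the germline transcription of constant genes that precedes class switching. Each constant gene can end in a membrane form, which anchors the B cell receptor, or a secreted form, which makes antibody. The J chain, gene Igj in these files, links secreted IgM and IgA into polymers.

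The ends of the Ighm messenger are shown because the difference between the deletions fell on one of them. They come from GENCODE vM21 (GRCm38), read 5' to 3' on the minus strand. Lower case marks the 30 coding bases that both forms share, and capitals mark the coding end, stop codon included, that belongs to 1 form. The secreted end reads on without a splice into chr12:113420867-113420928. The membrane end is spliced to 2 exons that span chr12:113418826-113419068 and encodes the stretch that crosses the membrane.
Ighm secreted end: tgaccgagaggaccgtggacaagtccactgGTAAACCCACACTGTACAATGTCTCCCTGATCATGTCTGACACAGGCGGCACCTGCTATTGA
Ighm membrane end: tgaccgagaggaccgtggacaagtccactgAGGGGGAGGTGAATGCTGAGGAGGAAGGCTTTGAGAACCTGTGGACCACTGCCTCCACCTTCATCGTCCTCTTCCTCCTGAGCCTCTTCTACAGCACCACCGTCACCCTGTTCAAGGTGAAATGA

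Across both states, 171 of 14095 genes tested passed an adjusted p of 0.05 (1.21%; edgeR's quasi-likelihood test with Benjamini-Hochberg adjustment). Of these, 102 fell in the 3'RR deletion relative to the hs3b-hs4 deletion (0.724% of genes tested) and 69 rose (0.49%). The test fits 1 genotype difference over the pair of states. Its error combines how far a gene's difference varied between resting and stimulated cells with a spread shared across genes. The test has 1 residual degree of freedom and no replicate pools. Most of the genes that fell belonged to 2 annotation classes: 26 were immunoglobulin variable (V) segments and 40 were pseudogenes. Among 11463 protein-coding and immunoglobulin constant genes, 29 fell and 58 rose (0.759%). With DESeq2, 285 genes passed and 49.1% of them fell, against 59.6% in the edgeR fit. The 4 libraries hold 24336168 to 28527044 counts, and 3 counts correspond to 0.104 to 0.119 on the counts-per-million (CPM) scale. Levels are CPM after TMM scaling, edgeR's correction for library composition, and are not per gene length. In bulk RNA, fewer cells of a type and less RNA per cell cannot be told apart, here and in every result that follows.

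**Figure D1:**
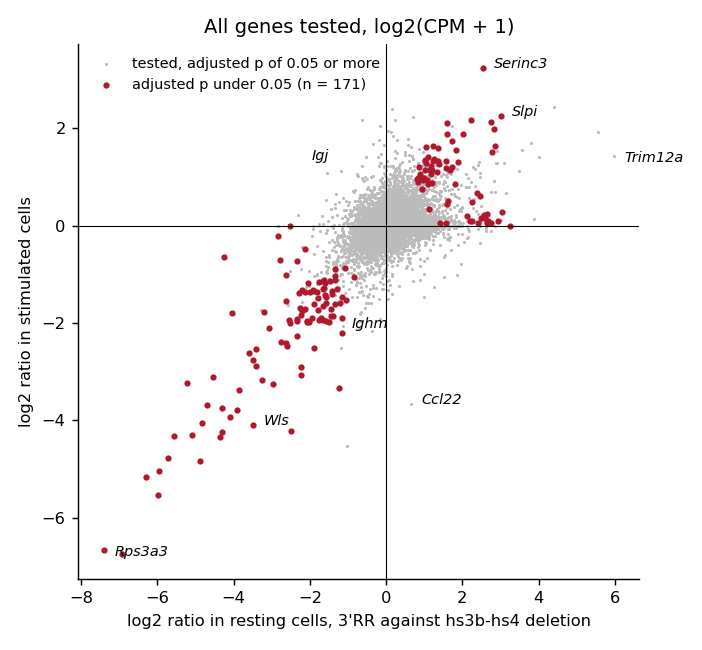
Difference between the deletions in resting cells (x axis) against stimulated cells (y axis), each as log2(CPM + 1) in the 3'RR deletion minus that in the hs3b-hs4 deletion. Each point is 1 of the 14095 genes tested and the 171 that passed the test are in red. Rps3a3 and Wls lie far below 0 in both states, Serinc3 and Slpi above, while Igj is low in resting and high in stimulated cells.

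The heavy chain constant genes were the plainest group: all 6 that could be tested were lower in the 3'RR deletion in both states. Ighm, Ighg1, Ighg2b and Igha passed the test, Ighg3 had an adjusted p of 0.0939 and Ighg2c of 0.109. Ighm, the µ chain of IgM (chr12:113418950-113422730 in the count table, minus strand), stood at 1255 CPM in resting 3'RR-deleted and 3731 CPM in resting hs3b-hs4-deleted cells. In stimulated cells it stood at 3592 against 10828 CPM. The ratio was 0.336 in resting cells (exact 95% counting interval 0.332 to 0.340) and 0.332 in stimulated cells (0.329 to 0.334), the same deficit of about 3-fold before and after LPS. The log2 fold change was -1.58 ± 0.19 (SE), with an adjusted p of 0.044. Stimulated over resting, Ighm was 2.86-fold higher in the 3'RR deletion and 2.90-fold higher in the hs3b-hs4 deletion. The wild-type libraries held 2904 CPM at rest and 9732 CPM with LPS, close to the hs3b-hs4 deletion and above the 3'RR deletion. The 3'PAL deletion held 2439 CPM at rest and 6413 CPM with LPS, between the compared deletions in both states. The Ighm call did not hold when genes under 50 counts in 2 libraries were left out (adjusted p 0.0674) or on the kallisto estimates (0.116), while the log2 fold change stayed between -1.64 and -1.50.

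The γ chain genes, which encode the heavy chains of IgG, were near the detection limit in the 3'RR deletion. Their summed counts were 16 against 396 in resting cells, a ratio of 0.0361 (0.0204 to 0.0593). In stimulated cells they were 6 against 849, a ratio of 0.00669 (0.00245 to 0.0146). In the hs3b-hs4 deletion the isotypes differed in how they moved with LPS. Ighg3, the γ3 gene that LPS is known to induce, had 35 counts in resting and 578 in stimulated hs3b-hs4-deleted cells, 16.7-fold more in CPM (11.9 to 24.3). In the 3'RR deletion Ighg3 had 5 counts at rest and 1 with LPS, so the stimulated ratio was 0.00164 (4.14e-05 to 0.00916). Wild-type stimulated cells held 99.8 CPM of Ighg3, the stimulated hs3b-hs4 deletion 22.9 CPM and the stimulated 3'PAL deletion 34.0 CPM. At rest the levels were 30.2 CPM in the wild type, 1.37 CPM in the hs3b-hs4 deletion and 32.7 CPM in the 3'PAL deletion. The 16.7-fold rise thus began from a low resting level.

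Ighg1, the γ1 gene, had 0 counts in resting 3'RR-deleted and 209 in resting hs3b-hs4-deleted cells, at least 78.1-fold lower against a floor of 3 counts. With LPS it had 1 count against 64, a ratio of 0.0148 (0.000369 to 0.0854). Ighg2b had 10 counts against 136 at rest and 4 against 191 with LPS. In the hs3b-hs4 deletion Ighg1 was thus lower and Ighg2b higher with LPS, while both were at 10 counts or fewer in the 3'RR deletion. Ighg2c had 1 count against 16 at rest and 0 against 16 with LPS, at least 5.63-fold lower. The hs3b-hs4 deletion itself held less Ighg2b and Ighg2c than the wild type. At rest and with LPS, Ighg2b was at 5.31 and 7.56 CPM, against 14.0 and 41.0 CPM in the wild type. Ighg2c was at 0.624 and 0.633 CPM, against 11.3 and 6.19 CPM. Ighg1 was at 8.16 and 2.53 CPM, against 7.55 and 7.63 CPM. The ε gene Ighe had 0 against 2 and 0 against 1 counts, too few to compare.

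Igha, the α chain of IgA, is the constant gene nearest the 3'RR. It stood at 5.50 against 31.6 CPM in resting cells, a ratio of 0.174 (0.146 to 0.207). In stimulated cells the library counts were 4 against 23, a ratio of 0.165 (0.041 to 0.482). The log2 fold change was -2.53 ± 0.21, adjusted p 0.0206. Igha was thus low in both states by a similar ratio, although its level was far lower after culture in both genotypes. Of 22 tested genes that flank the IgH locus on chromosome 12, 0 passed the test and their median log2 fold change was -0.02, against 0.01 over all genes tested. All 31 genes called on chromosome 12 fell, and 30 of them belong to the IgH locus.

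**Figure D2:**
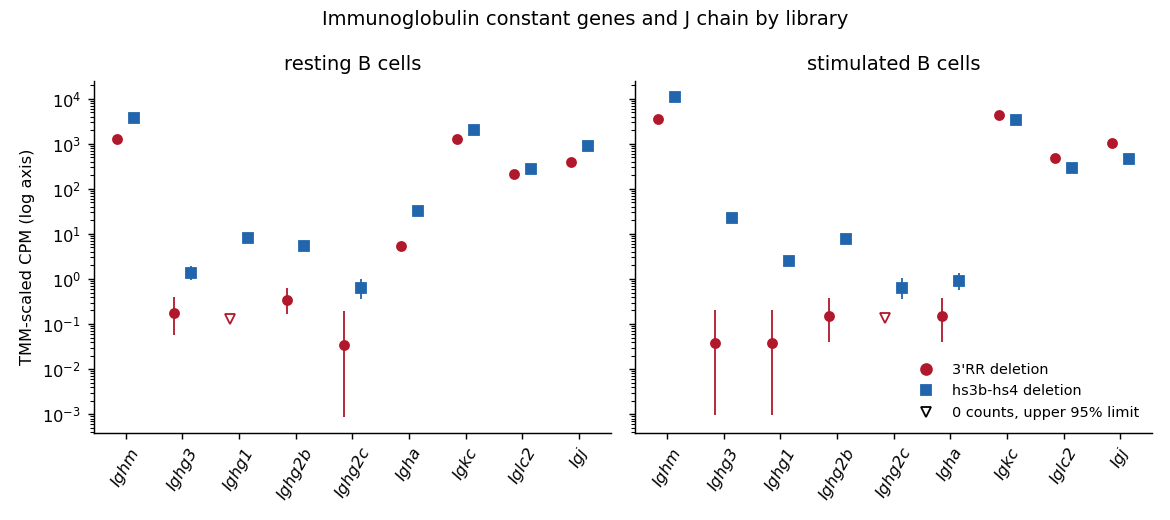
TMM-scaled CPM on a log axis for each heavy chain constant gene, the light chain constant genes and Igj, in resting (left) and stimulated (right) cells. Points are single libraries, bars are exact 95% Poisson intervals, and open triangles mark the upper limit where a library had 0 counts. The heavy chain genes lie lower in the 3'RR deletion in both panels, while Igkc, Iglc2 and Igj change order between panels.

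The Ighm deficit lay in the secreted form. In the authors' kallisto estimates, the membrane form was at 864 TPM (transcripts-per-million, a level per transcript length) in resting 3'RR-deleted and 810 TPM in resting hs3b-hs4-deleted cells. With LPS it was at 974 against 1152 TPM. The secreted form was at 317 against 2520 TPM at rest and at 1762 against 7419 TPM with LPS. On scaled estimated counts the membrane ratios were 1.01 and 0.879, and the secreted ratios 0.119 and 0.247, in resting and stimulated cells. The secreted form held 26.8% of Ighm TPM in the resting 3'RR deletion against 75.7% in the resting hs3b-hs4 deletion. After LPS the shares were 64.4% and 86.6%. Of the whole Ighm difference between the genotypes, the secreted form made up 100.4% at rest and 97.2% with LPS. These are 1 estimate per library with no spread, since kallisto divides reads between forms that share most of their length. For Igha the secreted form stood at 7.20 against 43.5 TPM in resting cells. Ighd, the δ chain that mature B cells carry beside IgM, had estimated counts of 6611 against 6766 at rest and 1562 against 1857 with LPS, scaled ratios of 0.889 and 0.810. Ighd thus lay nearer to even than Ighm did.

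**Figure D3:**
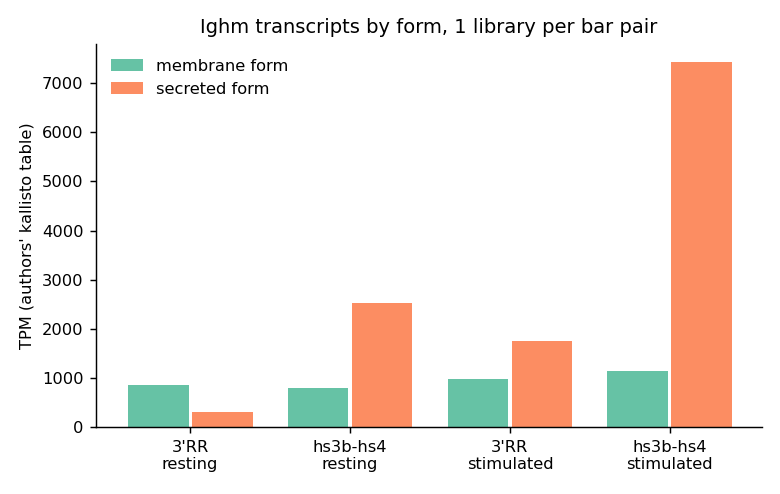
Authors' TPM of the membrane and secreted forms of Ighm in the 4 libraries. The membrane bars are of similar height in both genotypes, while the secreted bars are lower in the 3'RR deletion, 317 against 2520 TPM at rest and 1762 against 7419 TPM with LPS.

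Heavy chain V segments, which encode the antigen-binding end of the heavy chain, lay low as the constant genes did. Of 114 Ighv segments in the count table, 107 had a count and 83 were tested. Among these, 26 fell, 0 rose and 80 were lower in both states, with a median log2 fold change of -1.62 (range -3.58 to -0.27). By comparison, 0.724% of all genes tested fell, and the median over all genes was 0.01. The V segment Ighv5-6, singled out after its values were seen, stood at 12.4 against 52.9 CPM at rest and 47.6 against 189 CPM with LPS (log2 fold change -2.04 ± 0.10, adjusted p 0.00681). Its wild-type levels, 18.2 and 76.7 CPM, and 3'PAL levels, 19.9 and 59.8 CPM, lay nearer the 3'RR deletion. Of the 26 that fell, the wild type lay nearer the hs3b-hs4 deletion in both states for 17 and nearer the 3'RR deletion for 5. The 3'PAL deletion lay nearer the hs3b-hs4 deletion for 10 and nearer the 3'RR deletion for 9. The remaining segments differed by state. Summed over the segments, Ighv RNA was 186 against 662 CPM in resting cells (ratio 0.281) and 554 against 1806 CPM in stimulated cells (0.307). These ratios are close to those of Ighm. Only Ighv1-5, Ighv1-12 and Ighv15-2, each at most at 1.05 CPM in resting cells, did not lie lower in both states.

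Ordered by distance from Igha, the 28 nearest tested Ighv segments included 17 of the 26 that fell, with a median log2 fold change of -1.91. The 27 middle segments included 7, with a median of -1.50, and the 28 farthest included 2, with a median of -1.56. The groups differed in level as well, with medians of 13.2, 3.41 and 1.90 CPM from near to far. The part of level in the number of calls was not tested.

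The κ light chain did not share this pattern. Of 95 tested Igkv segments, 0 fell and 1 rose, and 67 were lower in resting and higher in stimulated 3'RR-deleted cells. Their median log2 ratio was -0.51 at rest and 0.37 with LPS. Summed Igkv RNA was 1230 against 1886 CPM in resting cells (ratio 0.652) and 4077 against 3110 CPM in stimulated cells (1.31). Igkc, the κ constant gene, followed with 1261 against 2052 CPM at rest and 4259 against 3351 CPM with LPS. Iglc2, a λ constant gene, stood at 213 against 279 CPM and at 481 against 294 CPM. Heavy and light chain RNA were therefore lower together in resting 3'RR-deleted cells and lay on opposite sides of the hs3b-hs4 deletion after LPS.

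**Figure D4:**
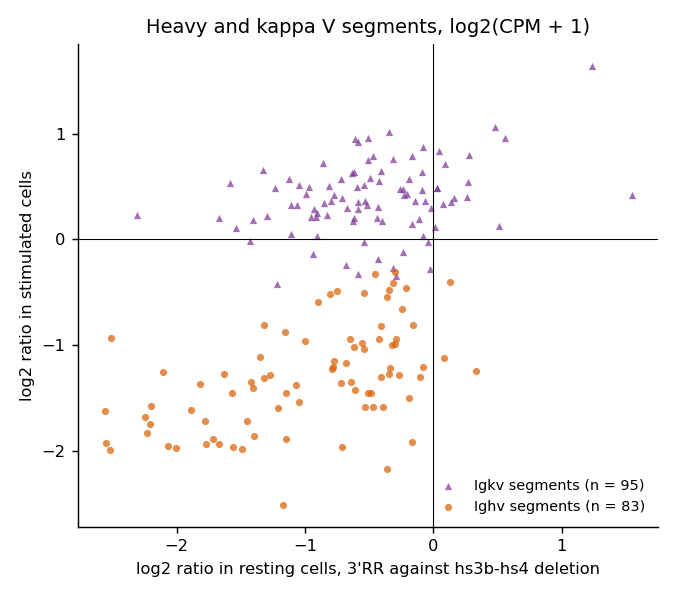
Log2 ratio, 3'RR against hs3b-hs4 deletion, of tested V segments in resting (x axis) and stimulated (y axis) cells. Heavy chain segments lie lower in both states in 80 of 83 cases, while 67 of 95 κ segments are lower at rest and higher with LPS.

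Igj lay on opposite sides of the hs3b-hs4 deletion at rest and with LPS. It stood at 389 against 888 CPM in resting cells, a ratio of 0.438 (0.428 to 0.448). In stimulated cells it stood at 1025 against 467 CPM, a ratio of 2.20 (2.15 to 2.24). Within the 3'RR deletion Igj was 2.63-fold higher with LPS than at rest, and within the hs3b-hs4 deletion it was at 0.525 of the resting level. Reference levels also varied, with 595 and 587 CPM in the 3'PAL deletion and 128 and 170 CPM in the wild type, at rest and with LPS. The difference between states, tested over all 8 libraries, was 2.31 ± 0.34 on the log2 scale with an unadjusted p of 0.000305 and an adjusted p of 1 (edgeR).

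Genes of antibody-secreting cells followed the order of Igj without passing the test. Of 17 tested markers, Igj among them, 0 were called, 5 were higher in the 3'RR deletion at rest and 16 were higher with LPS. Sdc1, which encodes the plasma cell surface protein CD138, stood at 11.6 against 14.9 CPM at rest and 26.7 against 16.7 CPM with LPS. Mzb1, a chaperone of antibody assembly, stood at 74.3 against 90.2 CPM and at 439 against 350 CPM. Of 32 tested endoplasmic reticulum folding genes, 29 were higher in stimulated 3'RR-deleted cells and 1 was called. That gene, Ero1lb, an oxidase of disulfide bond formation, rose with 184 against 88.8 CPM at rest and 225 against 91.8 CPM with LPS (log2 fold change 1.17 ± 0.12, adjusted p 0.0288). Ero1lb lost its call in 3 of 14 alternative settings, where its log2 fold change ranged from 0.23 to 1.28. Of 16 tested regulators of plasma cell fate, 0 were called. With 1.21% of all genes tested called, these counts of 0 or 1 show nothing particular to the lists.

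Lists of genes known to act on the locus, of B cell signalling and of B cell subsets were called at counts near those that 1.21% of all genes tested would give, so nothing particular to them is read from the counts. Of 32 tested genes for factors known to bind the 3'RR, 0 were called and the median log2 fold change was -0.01. Of 25 genes of heavy chain RNA processing, 0 were called, with a median of -0.06. Of 30 class switch genes, 1 was called: H2afx, the histone variant that marks DNA breaks, rose with 48.7 against 20.5 CPM at rest and 302 against 164 CPM with LPS (adjusted p 0.0463). None of 28 B cell receptor signalling genes, 27 B cell identity genes and 19 marginal zone genes was called. Of 15 B-1 cell genes, 1 was called: Spn, which encodes the CD43 used for purification, rose with 15.2 against 7.88 CPM at rest and 131 against 56.0 CPM with LPS (adjusted p 0.0382). Its level was far higher after culture than in the selected resting cells in both genotypes.

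Outside the immunoglobulin loci, among called genes that averaged 3 or more in log2(CPM + 1), the largest named change was in Rps3a3, a processed pseudogene of the ribosomal protein gene Rps3a1 (chr13:108670603-108671397). It stood at 1.74 against 463 CPM in resting cells and 2.4 against 345 CPM in stimulated cells (log2 fold change -7.60 ± 0.27, adjusted p 0.00274). The 3'PAL-deleted and wild-type libraries held 373 to 630 CPM, so the 3'RR deletion alone was low. A second copy, Rps3a2, fell less, with 57.9 against 182 CPM and 72.5 against 158 CPM (adjusted p 0.0399). The parent Rps3a1 lay the other way, at 1142 against 598 CPM at rest and 1749 against 1035 CPM with LPS (adjusted p 0.0912). Summed over the 3 genes, the level was 1202 against 1243 CPM in resting cells (ratio 0.967) and 1824 against 1538 CPM in stimulated cells (1.19). The sum was thus nearly even at rest while its division between parent and copies was not.

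Rps3a3 differs from the parent transcript at 9 of 795 bases (98.9% identity), and Rps3a2 at 4 of 792 (99.5%). The stretches below, 80 coding bases of the parent and the matching bases of the copy from GENCODE vM21 (GRCm38), are shown because reads from one can hardly be told from the other. Capitals mark the 2 bases that differ. Rps3a1 is read on the minus strand at chr3:86141333-86141412 and Rps3a3 on the plus strand at chr13:108670783-108670862.
Rps3a1: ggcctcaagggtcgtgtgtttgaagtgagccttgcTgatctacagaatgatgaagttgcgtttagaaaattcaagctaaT
Rps3a3: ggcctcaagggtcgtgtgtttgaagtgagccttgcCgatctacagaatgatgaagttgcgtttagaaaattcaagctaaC

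Pseudogenes were called more often than genes as a whole, mostly as lower in the 3'RR deletion. Of 745 tested, 40 fell and 1 rose (5.50%), against 1.21% over all genes. For all 40 that fell, the 3'PAL deletion lay nearer the hs3b-hs4 deletion in both states, as did the wild type for 33. Counts of near-identical copies are uncertain, since reads can be assigned to either copy. Besides the Rps3a copies, 9 called ribosomal protein pseudogenes trace to 5 parent genes, Rps13, Rps15a, Rpl3, Rpl34 and Rpl30. All 5 parents were higher in both states and 0 passed the test. Among 88 tested ribosomal protein genes, 23 were higher at rest, 79 with LPS and 20 in both states.

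Among other genes that fell, Wls, the transport protein that brings Wnt ligands to the cell surface (chr3:159839737-159935833), stood at 7.84 against 98.2 CPM at rest and 3.11 against 68.8 CPM with LPS. Its log2 fold change was -4.02 ± 0.23, adjusted p 0.00681. Wild-type and 3'PAL-deleted libraries held 55.8 to 90.7 CPM of Wls, so the 3'RR deletion was the low one in both states. Ptpn14, a tyrosine phosphatase, stood at 22.7 against 111 CPM and 1.61 against 20.9 CPM (adjusted p 0.0424). Its wild-type levels, 19.7 and 1.91 CPM, lay near the 3'RR deletion, and its 3'PAL levels, 93.5 and 21.6 CPM, near the hs3b-hs4 deletion.

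The other named genes that fell did so by less. Ehd3, a membrane trafficking protein, had a log2 fold change of -1.88, Pard3b, a cell polarity protein, of -1.84, and Nrp2, a semaphorin co-receptor, of -1.51. Crim1, a membrane protein that binds bone morphogenetic proteins, had -1.49, Ly6k -1.44, and Lars2, the mitochondrial leucyl-tRNA synthetase, -1.40. Their adjusted p-values were between 0.027 and 0.0479. For Lars2 the wild type lay on neither side, at 64.6 CPM at rest and 6.48 CPM with LPS, against 8.29 and 7.34 CPM in the 3'RR deletion and 21.7 and 19.5 CPM in the hs3b-hs4 deletion.

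Of the genes that rose, Serinc3, a multipass membrane protein (chr2:163623272-163645131), was the most abundant one named. It stood at 755 against 129 CPM at rest and 642 against 67.3 CPM with LPS (2.90 ± 0.21, adjusted p 0.0131). The wild type held 836 and 703 CPM, as the 3'RR deletion did, and the 3'PAL deletion 157 and 75.9 CPM, as the hs3b-hs4 deletion did. Slpi, a secreted inhibitor of leukocyte proteases, stood at 46.0 against 4.84 CPM and 14.5 against 2.22 CPM (3.01 ± 0.19, adjusted p 0.00922). Pltp, the phospholipid transfer protein, stood at 19.0 against 3.98 CPM and 11.4 against 2.37 CPM (adjusted p 0.0168). These genes are neighbours: Serinc3, Pkig, Slpi and Pltp lie between chr2:163623272-164857711, where 4 of 25 tested genes were called and all rose. The called genes themselves set the ends of this span, so its share cannot be set against the 1.21% of all genes tested. Other runs of called neighbours held both directions, such as Ehd3, which fell, and Nlrc4, which rose.

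Pyhin1, an interferon-inducible protein, stood at 197 against 55.0 CPM at rest and 133 against 44.6 CPM with LPS (adjusted p 0.0115). Nxpe2 rose by 2.56 on the log2 scale, Hs3st1, a heparan sulfate sulfotransferase, by 1.85, and Endou, an RNA endonuclease, by 1.52. The replication-dependent histone genes Hist1h2ap and Hist1h2ac each had a log2 fold change of 1.47, and the small nuclear RNA Rnu1b2 of 1.72. Near-identical copies make the values of the histone and small nuclear RNA genes uncertain. Slc4a1, the red cell anion exchanger, and Slc40a1, the iron exporter ferroportin, were present at rest only. Slc4a1 stood at 368 against 58.1 CPM and Slc40a1 at 179 against 60 CPM in resting cells, and both were under 1 CPM in stimulated cells.

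**Figure D5:**
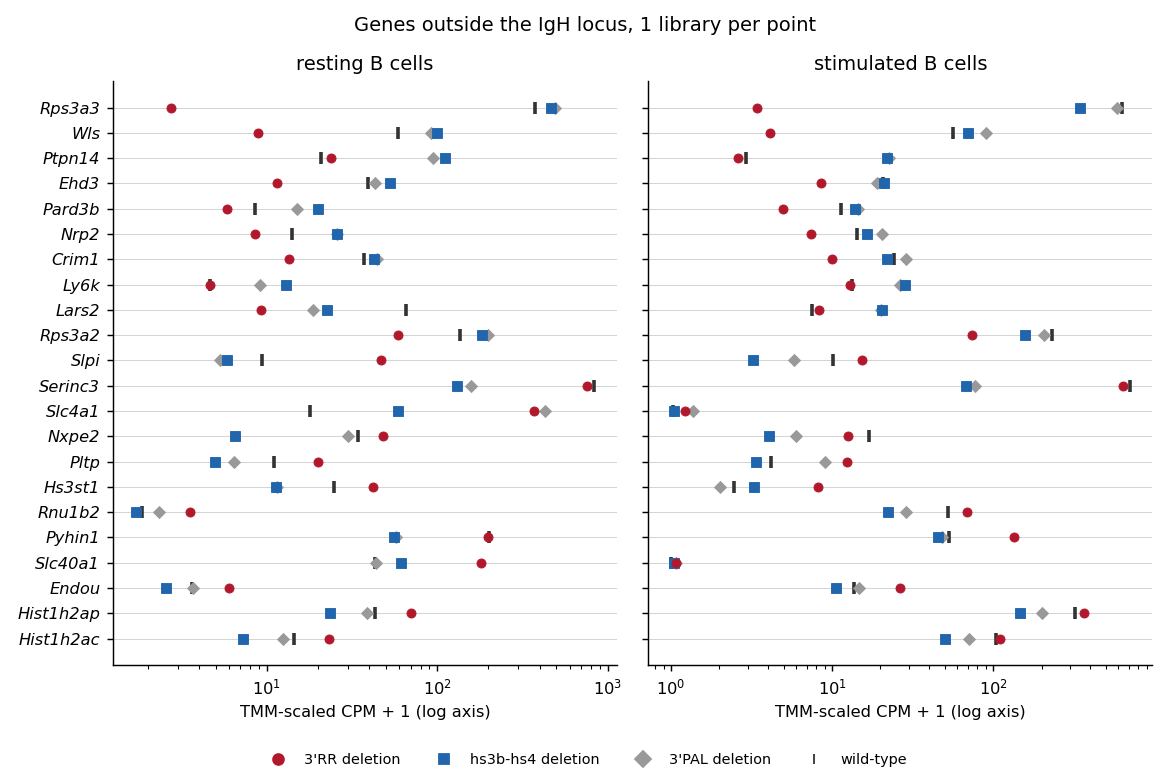
TMM-scaled CPM + 1 on a log axis for the genes outside the IgH locus named above, in resting (left) and stimulated (right) cells, with 1 library per point. For Rps3a3 and Wls the 3'RR deletion stands apart from the other 3 genotypes, while for Serinc3 it lies with the wild type.

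Markers of myeloid, red and platelet lineages were higher in the resting 3'RR deletion. Of all genes tested, 0.49% rose over both states, and their median log2 ratio at rest was -0.01. Of 19 tested monocyte and macrophage markers, 3 rose and 18 were higher in resting 3'RR-deleted cells, with summed levels of 1904 against 843 CPM at rest and 27.9 against 15.7 CPM with LPS. The 3 were Slc40a1, the growth factor receptor Csf1r (252 against 114 CPM at rest) and the mannose receptor Mrc1 (141 against 46.2 CPM). These calls depended on the setting: Mrc1 lost its call in 11 of 14 alternative settings, Csf1r in 7 and Slc40a1 in 3. Of 14 tested erythroid markers, 3 rose, Slc4a1 and Kel among them, and all 14 were higher at rest, with a median log2 ratio of 1.82. The 15 in the count table summed to 13724 against 10867 CPM at rest and 559 against 448 CPM with LPS. Globin genes made up most of the resting sum. Globin RNA alone was at 12555 against 10473 CPM at rest and 152 against 42.1 CPM with LPS. Of 8 tested platelet markers, 1 rose, Ppbp, and the 11 in the count table summed to 120 against 54.7 CPM at rest. T cell markers were at 59.9 against 68.4 CPM and natural killer cell markers at 15.5 against 17.1 CPM in resting cells. Neutrophil markers summed to 11.6 against 8.16 CPM, and their defining gene Ly6g had 0 counts in all 4 libraries. Of the 171 genes called, 27 were under 1 CPM in both stimulated libraries, and 21 of these rose. The calls of these 27 rest mainly on the resting pair of libraries, since few or no counts were left after LPS. The part of these cells in the other resting differences was not tested. With at least 1 CPM required in a stimulated library, a setting chosen after seeing the data, 144 genes were called, 48 higher and 96 lower.

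Within one state the comparison is 1 library against 1, without a test, and genes were taken by size: a log2(CPM + 1) that differed by 1 or more, among genes that reached 10 CPM in either library. In resting cells 464 of 8482 genes passed this size (5.47%), 147 lower (1.73%) and 317 higher (3.74%) in the 3'RR deletion. In stimulated cells 189 of 8264 passed (2.29%), 96 lower (1.16%) and 93 higher (1.13%). Resting cells thus had more genes on the higher side. Of 98 genes past the size in both states, 95 lay on the same side and 3, Igj, Oasl1 and Iglv3, on opposite sides.

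In resting cells, Trim12a and Trim5, neighbouring genes of the antiviral TRIM family on chromosome 7, were high in the 3'RR deletion. Trim12a stood at 83.8 against 0.351 CPM at rest, a ratio of 239 (126 to 523), and at 37.5 against 13.3 CPM with LPS. The other resting libraries held 0.283 CPM of Trim12a in the 3'PAL deletion and 0.691 CPM in the wild type. With LPS they held 0.375 and 0.072 CPM, so Trim12a did not rise to a similar level in either reference genotype. Trim5 stood at 33.4 against 1.13 CPM at rest and 23.1 against 8.03 CPM with LPS. Stimulated 3'PAL-deleted and wild-type cells held 1.47 and 1.33 CPM of Trim5. Both genes were higher in the stimulated than in the resting hs3b-hs4 pool and lower in the stimulated than in the resting 3'RR pool. Apobec3, a deaminase that restricts retroviruses, had a resting ratio of 12.7 (180 against 14.2 CPM), and Pydc4, of the interferon-inducible Pyhin cluster, 33.2 (54.5 against 1.64 CPM). None of these 4 passed the test over both states. Adamdec1, a metalloprotease known from macrophages, stood at 15.6 against 0.0781 CPM at rest and had 0 counts in both stimulated libraries.

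On the lower side in resting cells, Gdpd3, a phosphodiesterase of lysophospholipids, stood at 0.940 against 71.6 CPM. Gprc5b, an orphan receptor, stood at 0.453 against 23.0 CPM and Col6a4, a collagen chain, at 0.0348 against 18.8 CPM. The ribonuclease P RNA gene Rprl3 had 0 counts in both 3'RR-deleted libraries against 25 CPM at rest and 11.9 CPM with LPS. These 4 genes also passed the test over both states.

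After LPS, Ccl22, a chemokine that attracts regulatory T cells, stood out among the lower genes. It was at 10.2 against 142 CPM in stimulated cells, a ratio of 0.0718 (0.0633 to 0.0813), and at 3.07 against 1.60 CPM at rest. S100a6, a calcium-binding protein, lay the other way at 13.9 against 1.82 CPM with LPS and 14.5 against 12.8 CPM at rest. Ly6c2 stood at 24.1 against 4.55 CPM with LPS, and Fam101b at 21.3 against 4.35 CPM. For these 4 genes the gap was that of stimulated cells, with resting levels within 2-fold of each other.

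Most cell cycle and interferon genes on the lists were higher in resting 3'RR-deleted cells, and the medians of both lists were near 0 after LPS. All 32 tested cell cycle genes were higher at rest, with a median log2 ratio of 0.91, against -0.01 over all genes, and 17 were higher with LPS, with a median of 0.01. Mki67, the proliferation marker Ki-67, stood at 371 against 98.3 CPM at rest and 1689 against 1618 CPM with LPS. At rest 12 of the 32 passed the size used within a state, and 0 of the 32 passed the test over both states. Of 37 interferon-stimulated genes, 34 were higher at rest (median 0.92) and 21 with LPS (median 0.01), with 10 past the size on the higher side at rest and 3 on the lower side with LPS. Of these 37, 1 was called, Iigp1, an immunity-related GTPase at 7.31 against 0.742 CPM at rest and under 1 CPM with LPS (adjusted p 0.0399). Rsad2, the antiviral protein viperin, stood at 162 against 43.6 CPM at rest. Oasl1, a regulator of the interferon response, was at 11.9 against 5.43 CPM at rest and 28.3 against 79.2 CPM with LPS. Genes of ribosome biogenesis lay slightly the other way, with 1 of 25 higher at rest and 2 of 25 with LPS.

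Whether the deletions differed more in one state than in the other was tested over all 8 libraries, with 1 added term and 2 residual degrees of freedom. This test can miss large differences. In simulated counts it recovered 30% of differences of 2 and 69% of differences of 4 on the log2 scale. The simulation left out genes of low count and gave every gene a biological coefficient of variation of 14.3%. In the fit to the real counts the common value was 16.7%, so recovery there can be lower. A count of 0 therefore does not show that the states were alike. Of 14744 genes, 0 passed (0%; edgeR), 480 had an unadjusted p under 0.05, and the lowest adjusted p was 1. Without the wild-type libraries, the same test called Trim12a (-6.14 ± 0.55, adjusted p 0.0295) and Ighg3 (-7.66 ± 0.76, adjusted p 0.0347), whose stimulated difference lay below the resting one. That fit has fewer residual degrees of freedom, and its spread rests on the 3'PAL pair beside the mean of the compared deletions. From rest to LPS, Ighg3 went from 32.7 to 34.0 CPM in the 3'PAL deletion and from 30.2 to 99.8 CPM in the wild type left out. Trim12a went from 0.283 to 0.375 CPM and from 0.691 to 0.072 CPM. The state-specific values of Igj, Trim12a, Ccl22 and the cell cycle genes are therefore single-library values without a replicate.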

How the data were processed

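RNA was rRNA-depleted, made into stranded paired-end libraries and sequenced, per the labels' protocols. The submitters' processing notes name STAR 2.4.0a, featureCounts 1.4.6-p1, kallisto 0.42.3 and the builds GRCm38 and mm10, with no order or role. The authors deposited raw counts per gene, used here as given, and kallisto's estimated counts and TPM per transcript. The column names of the deposited TPM table are shifted, so its columns were assigned by content. A row without a gene name held 0.0062 to 0.0297% of counts and was left out, and the 93 spike-ins were at 0.

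Genes were filtered by filterByExpr, scaled by TMM and tested with edgeR 4.0.16 (limma 3.58.1, R 4.3.3) on the 4 libraries, with terms for state and genotype. Ratios carry exact conditional binomial intervals and CPM exact Poisson intervals at 95%, which cover counting error only. Estimated counts were rounded for the kallisto alternative. Scripts were tested on simulated data. Biotypes came from GENCODE vM21 and matched 13379 of 14095 tested and 164 of 171 called genes.

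Named genes were the 12 largest changes in each direction among called genes that lay on one side in both states and averaged 3 or more in log2(CPM + 1). Within each state they were the 6 largest in each direction. Up to 4 called genes per list and the immunoglobulin constant genes and Igj were added. Genes with clone, predicted or V segment names were counted and not named, and some genes that the rule names are not reported here. Members and lists were chosen with earlier results of these data known. Alternatives were another tool, scaling, filter, libraries and estimates. Because the labels name no replicate pools, p-values measure only the spread between these libraries.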

Additional observations from a re-analysis of the deposited data

How the results depend on the processing

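The count of 171 genes came to 285 with DESeq2 1.42.0 (145 higher, 140 lower), 700 without a filter on low counts, 90 with at least 50 counts in 2 libraries, 265 over all 8 libraries, 267 over 6 libraries and 36 on kallisto estimates. Leaving out 1 library of the other genotypes from the 8 gave 229 to 279 (274 without the resting, 279 without the stimulated wild-type library). With library size alone it was 158, of which 67.1% were lower. Of the 171 genes, every one that was tested kept its direction in each of these settings. Rps3a3, Wls and Slpi kept their call in all 14 settings, and Serinc3 lost it on kallisto estimates (adjusted p 0.0723). Chosen after seeing the data, the stimulated libraries alone gave 74 genes and the resting ones alone 195, with the other genotypes' libraries kept for the spread. There the log2 fold change of Igkc was 0.33 (stimulated), that of Iglc2 -0.39 (resting) and that of Igj 1.12 (stimulated). Igj was also at 0.0081 with 6 libraries, 0.0144 without the resting and 0.00809 without the stimulated wild-type library, against -0.03. Ighm kept its direction but not its call in the stimulated (adjusted p 0.375) and resting (0.151) fits, and Igha lost its call in 2 of 14 settings. Lars2 lost its call in 6 of 14 settings, Csf1r in 7, Mrc1 in 11, and Pyhin1, Hs3st1, Endou, H2afx, Spn and Ppbp each in 5. The Ighm ratio was 0.328 at rest and 0.314 with LPS by library size alone, and 0.361 and 0.344 on kallisto estimates. Without a minimum level, the size rule took 847 genes at rest and 350 with LPS. The test pairs the libraries by state. No paired analysis by replicate was possible because there is 1 library per genotype and state. Depth limits the γ and ε genes of the 3'RR deletion, which lie at 16 counts or fewer.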
